A study of Mus musculus with 12 samples.

Results

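The genes of mitochondrial oxidative phosphorylation were followed in the mouse aorta through a BAPN + AngII challenge, with and without rapamycin. The members were the probes whose gene name on the array begins with Nduf, Sdha to Sdhd, Uqcr, Cox4 to Cox8 or Atp5. This gave 136 of the 55681 probes, for 92 gene names. By name they fell into 36 subunit genes of complex I, 4 of complex II, 8 of complex III, 19 of complex IV and 15 of complex V. Beside them stood Cox7a2l, a factor that joins complexes III and IV, 8 assembly factors, and Cox4nb, whose name meets the rule although RefSeq now calls it Emc8, which is no subunit. Ndufa4 and Ndufa4l2 were counted with complex IV, where Ndufa4 is now placed. Of the 136 probes, 132 from 90 gene names were bright enough to be tested. The 4 others were the sole probes of Cox7b2 and Cox8c and a further probe each of Ndufb5 and Atp5j.

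The samples were aortas of C57BL/6J mice, taken as whole tissue on day 3, with 3 arrays in each of 4 groups. Per the study's methods the mice were male. The DMSO group received the vehicle dimethylsulfoxide alone, and its titles begin with Pre, a word the study uses for the state before the challenge. The rapamycin group received rapamycin, an inhibitor of the kinase mTOR, at 2 mg/kg/day in DMSO. The BA+DMSO group received the same vehicle with BAPN, an inhibitor of collagen crosslinking, at 150 mg/kg/day and angiotensin II at 1 µg/kg/min, a combination that leads to aortic dissection. The BA+rapamycin group received BAPN, angiotensin II and rapamycin at those doses. The labels do not say that the 3 arrays of a group came from separate mice, so p-values measure the spread between these samples.

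Oxidative phosphorylation takes electrons from NADH through complex I and from succinate through complex II, passes them by way of complex III and cytochrome c to complex IV, which reduces oxygen, and uses the proton gradient built by complexes I, III and IV to make ATP in complex V. Complex II is encoded wholly in the nucleus, while the other complexes combine nuclear subunits with the 13 proteins encoded by the mitochondrial genome. Several complex IV subunits exist as a common form and a form of heart, skeletal muscle and brown fat. mTOR is known as a regulator of mitochondrial gene expression and of the translation of nuclear-encoded mitochondrial proteins.

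All values are log2 signal relative to the 75th percentile of the array, and differences are differences of group means on that scale. A probe was called at a Benjamini-Hochberg adjusted p under 0.05 in limma. Member levels are compared between groups within a probe. Since whole tissue was measured, fewer cells of a type and less RNA per cell cannot be told apart.

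The arrays differed in brightness. The 75th percentile itself was 221 to 280 in DMSO, 257 to 337 with rapamycin alone, 74.6 to 109 for BA+rapamycin, and 132, 78.1 and 246 on arrays 1, 2 and 3 of BA+DMSO. Slide 1 held the 3 DMSO arrays and rapamycin 1, and slide 2 held all the others, so for the challenge in DMSO a slide effect can be estimated only through the rapamycin group, with 1 array on slide 1 and 2 on slide 2. All 8 smooth muscle markers were above background on every array. Of these, 1 was called lower in the challenge, where 10.8% of all tested probes were. In the challenge under rapamycin 2 were called lower and 1 higher, where 22.9% and 18.9% of all tested probes were. Their sum, in units of the 75th percentile, was 2862 to 3082 for DMSO, 2592 to 3053 for rapamycin, 2460 to 4838 for BA+DMSO and 3482 to 4517 for BA+rapamycin. The actin-binding Lmod1 stood at 2.62, 2.73 and 2.67 in DMSO, 2.27, 2.45 and 2.33 for rapamycin, -0.06, 1.01 and 1.35 for BA+DMSO, and 0.38, 0.42 and 0.58 for BA+rapamycin, so its challenged arrays all lay below the others. The brightest markers of the list, which weigh most in its sum, went the other way from rapamycin to BA+rapamycin. Tagln went from 9.69, 9.88 and 9.58 to 10.49, 11.05 and 10.76. Acta2 went from 9.77, 9.88 and 9.60 to 10.24, 10.45 and 10.12. The summed signal of 8 macrophage markers, in units of the 75th percentile, ran from 110 to 144 on the unchallenged arrays, from 187 to 491 on the BA+DMSO arrays and from 375 to 501 on the BA+rapamycin arrays. Of these markers 7 were called higher in the challenge and 5 in the challenge under rapamycin, where 9.65% and 18.9% of all tested probes were. The highest BA+DMSO sum is that of array 2, where Itgam was highest of the group (8.74) while Cd68, Mrc1, Lyz2 and Emr1 were lowest, so the sum and most of the list went apart there. Itgam was the brightest of the list on every array and weighs most in the sum. From BA+DMSO to BA+rapamycin Itgam overlapped (7.84, 8.74 and 6.53 against 8.14, 8.67 and 8.38). Aif1 was lower in BA+rapamycin (2.90, 2.71 and 2.76 against 3.41, 3.08 and 3.25). The 4 erythroid markers above background on every array summed to 18.1 to 84.2 for DMSO, 80.5 to 187 for rapamycin, 114 to 234 for BA+DMSO and 309 to 350 for BA+rapamycin. The 5 fibroblast markers summed to 558 to 834, 783 to 834, 716 to 1344 and 1247 to 1567 in the same order. That list split from rapamycin to BA+rapamycin, where Pi16 and Col1a1 were wholly higher and Lum overlapped. Dcn was wholly lower (8.70, 8.79 and 8.94 to 8.44, 8.47 and 8.27), as was Pdgfra (2.32, 2.26 and 2.61 to 2.18, 1.92 and 1.86). The part of cell makeup in the results was not tested.

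The sequences that the results turn on are shown first. The transcripts of the mitochondrial genome, which encode the other subunits of these complexes, are represented by the probes for COX1, ND4 and CYTB, which lie on the plus strand of the mitochondrial chromosome (mm9) at chrM:6650-6709, chrM:11370-11429 and chrM:15099-15158.
COX1: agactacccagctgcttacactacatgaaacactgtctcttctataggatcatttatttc
ND4: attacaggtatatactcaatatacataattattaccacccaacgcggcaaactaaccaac
CYTB: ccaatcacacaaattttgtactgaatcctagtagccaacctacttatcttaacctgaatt

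Some nuclear members whose values are given array by array, namely a gene called higher in both challenge comparisons, 3 tissue forms and a supercomplex factor, are shown by the first 30 bases of their probes, on mm9, where the sources used here do not give the exon or UTR. They are Ndufab1 (chr7:129231667-129231726, minus strand), Cox6a2 (chr7:135349160-135349219, minus strand), Cox7a1 (chr7:30970337-30970948, plus strand, so the file's span is longer than the probe), Cox8b (chr7:148084852-148084911, minus strand) and a pair of overlapping probes for Cox7a2l (chr17:83901272-83901331 and chr17:83901291-83901350, minus strand). Capitals mark the bases that the second Cox7a2l probe shares with the first, so those readings are not independent.
Ndufab1: tgtaaatggctactttaaatcccagggtag
Cox6a2: agcaatcttcaaattggccttctgcacacc
Cox7a1: acaacgtcctgtacagactgaccatgacgc
Cox8b: ctataaaaagagctccgcagcatgaagttg
Cox7a2l, first probe: CCTTTAATAATGCTGTGGCTTTACGTTATG
Cox7a2l, second probe: cagctgtgtcaggacttctCCTTTAATAAT

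The subunits of all 5 complexes moved together from array to array. Relative to the DMSO mean, the median subunit gene stood at 0.03, 0.03 and -0.06 on DMSO arrays 1, 2 and 3. It stood at -0.28, -0.19 and -0.06 for rapamycin, at -0.21, -0.65 and 0.28 for BA+DMSO, and at -0.59, -0.74 and -0.77 for BA+rapamycin. The 3 BA+rapamycin arrays lay below the 6 unchallenged arrays, and BA+DMSO ran from -0.65, among the BA+rapamycin arrays, to 0.28, the highest of the 12. Within BA+DMSO, array 3 was the highest of the group for 70 of 80 tested subunit genes and array 2 the lowest for 61. The median SD of a subunit gene between the 3 arrays of a group was 0.08 for DMSO, 0.12 for rapamycin, 0.48 for BA+DMSO and 0.13 for BA+rapamycin. Over all tested probes it was 0.16, 0.17, 0.50 and 0.22 in the same order, so the wide spread of BA+DMSO was shared by the whole array.

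**Figure D1:**
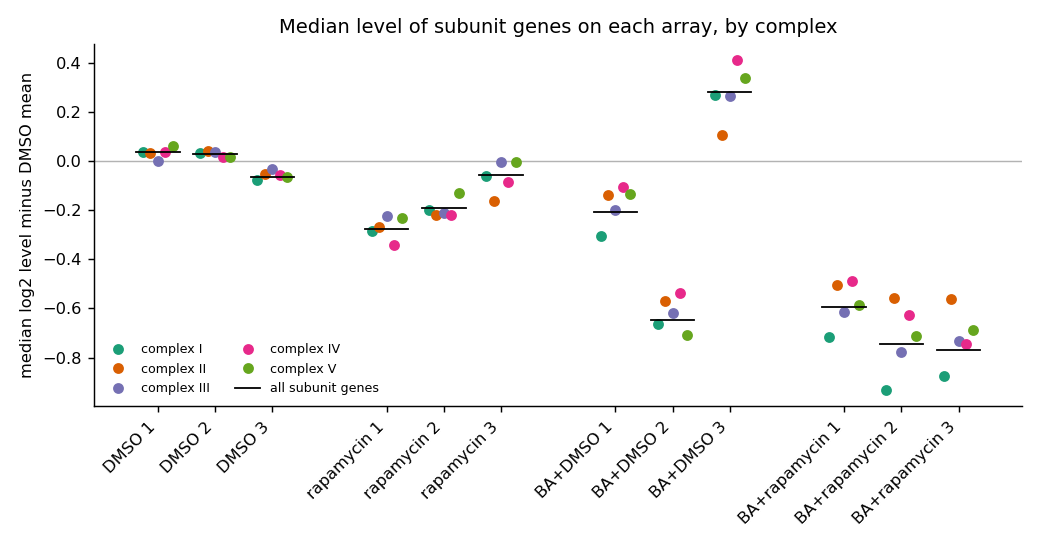
Median log2 level of the tested subunit genes of each complex on each of the 12 arrays, minus the mean of the DMSO arrays; black lines are the median over all 80 subunit genes. The median over all subunit genes sits between -0.59 and -0.77 on the BA+rapamycin arrays, where the complexes run from -0.49 (complex IV, array 1) to -0.93 (complex I, array 2), and on BA+DMSO that median runs from -0.65 to 0.28.

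The complexes differed in depth more than in direction. In BA+rapamycin the median subunit stood at -0.84 ± 0.11 for complex I (SD of the array medians, n = 3), -0.71 ± 0.08 for complex III, -0.66 ± 0.07 for complex V, -0.62 ± 0.13 for complex IV and -0.54 ± 0.03 for complex II. Complex I was the lowest of the 5 on each of the 3 BA+rapamycin arrays. The complexes in the middle of that order, III, V and IV, differed by less than the SD of complex IV.

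The challenge in DMSO, BA+DMSO minus DMSO, asks what BAPN + AngII does to these genes without rapamycin. Few members passed the test: 5 of 132 probes (3.79%) against 20.5% of all tested probes. Of them, 3 were higher (Ndufab1, Ndufa4l2 and Cox6b2), where 9.65% of all probes were higher, and 2 were lower (the second probe of Sdhc, and Atp5s), where 10.8% of all probes were lower. The median subunit gene differed by -0.19, beside -0.04 over all tested probes, and 60 of 80 subunit genes had a negative difference. With brightness as a covariate the median turned to 0.27, and 13 member probes were called higher and 2 lower. Of all 27801 tested probes, 3114 were then called higher and 1972 lower (18.3% together). By complex the median was -0.26 for I, -0.03 for II, -0.17 for III, -0.08 for IV and -0.21 for V. This comparison turned on single arrays. Without BA+DMSO 3, 45 member probes were called, 41 of them lower, beside 38% of all probes, and the median was -0.42. Without BA+DMSO 2, 9 were called, beside 27.2% of all probes, and the median was 0.04. Without BA+DMSO 1, DMSO 1 or DMSO 2, 2 were called, beside 11.2%, 11.8% and 7.38% of all probes, and 3 without DMSO 3, beside 11%.

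Ndufab1, the mitochondrial acyl carrier protein that is also a complex I subunit, rose on the scaled values. Its log2 levels were -1.21, -1.35 and -1.20 in DMSO, -1.82, -1.59 and -1.65 for rapamycin, 0.43, -0.69 and 0.40 for BA+DMSO, and -0.36, -0.71 and -0.52 for BA+rapamycin. All 6 challenged arrays lay above all 6 others, by 1.30 ± 0.27 (SE, adjusted p = 0.00835) in DMSO and by 1.16 ± 0.27 (adjusted p = 0.00778) under rapamycin. With slide as a fixed block no member was called in the challenge in DMSO, where 0.054% of all probes were. The differences were then 1.11 for Ndufab1 (adjusted p = 0.468 in limma), 1.09 for Ndufa4l2 (0.434) and 0.64 for Cox6b2 (0.521), so these calls in DMSO were lost, while Ndufab1 was still called under rapamycin (1.09, adjusted p = 0.031). Of the 36 complex I genes, 31 had a negative difference in the challenge in DMSO.

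Ndufa4l2, a paralogue of Ndufa4 known as a target of hypoxia-inducible factor, also rose. It stood at 1.83, 0.92 and 1.01 in DMSO and at 2.88, 2.30 and 2.49 in BA+DMSO, with no overlap (difference 1.30 ± 0.25, adjusted p = 0.00526). In rapamycin it stood at 1.64, 1.88 and 1.82, and in BA+rapamycin at 2.17, 2.24 and 2.08, also apart but by 0.38 ± 0.25 (adjusted p = 0.221). The change of the challenge effect with rapamycin was -0.92 ± 0.35 and was not called (adjusted p = 0.737 for the interaction). Its partner Ndufa4 differed by -0.20 ± 0.29 in the challenge and by -0.55 ± 0.29 in the challenge under rapamycin, both uncalled.

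Cox6b2, the testis form of the complex IV subunit whose common form is Cox6b1, rose in the challenge in DMSO. Its levels were 0.17, -0.12 and 0.41 in DMSO, 0.85, 0.73 and 0.81 for BA+DMSO, -0.33, -0.16 and -0.48 for rapamycin, and -0.19, -0.15 and -0.04 in BA+rapamycin. BA+DMSO lay above each of the other groups (0.64 ± 0.17 over DMSO, adjusted p = 0.0236). BA+rapamycin lay below BA+DMSO by 0.92 with no overlap, the smallest adjusted p of any member for rapamycin under challenge (0.0584). Cox6b1 differed by 0.10 ± 0.29 in the challenge.

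Next came the challenge in the presence of rapamycin, the BA+rapamycin arrays against the rapamycin arrays, called the challenge under rapamycin from here on. Of 132 member probes, 60 were lower (45.5%), where 22.9% of all tested probes were lower, and 3 were higher (2.27%), where 18.9% of all probes were higher. Together 63 were called (47.7%), beside 41.7% of all probes, so the share called lay near that of the array while its direction did not. The BA+rapamycin arrays lay wholly below the rapamycin arrays for 101 of the 132 probes, as for 36.1% of all probes, and wholly above for 8, as for 29.8% of all probes. The median subunit gene differed by -0.55, beside -0.08 over all tested probes.

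With each array's log2 75th percentile as a covariate, 1 member probe, Ndufab1, was still called, beside 6.42% of all probes, and the median subunit difference was 0.18. The percentiles of these groups do not overlap (257 to 337 against 74.6 to 109), so brightness and treatment cannot be told apart in this comparison. Leaving out 1 array of either group lowered the count. Without rapamycin 1, 2 and 3 it was 27, 20 and 9, beside 28.5%, 30.3% and 23.5% of all probes, and without BA+rapamycin 1, 2 and 3 it was 38, 15 and 16, beside 35%, 28.3% and 28.6%. The share of member probes called lower stayed above that of all probes without rapamycin 1 (19.7% against 15.4%) and without BA+rapamycin 1 (28.0% against 18.9%). It lay below it without rapamycin 2 (13.6% against 16.2%), rapamycin 3 (6.06% against 12.6%), BA+rapamycin 2 (9.85% against 15.6%) and BA+rapamycin 3 (10.6% against 15.5%). Without BA+DMSO 2, which only enters the estimate of the spread, 97 were called, beside 56.9% of all probes. Within slide 2, which is the same as leaving out rapamycin 1, the median was -0.62. Slide as a fixed block gave 27 called probes, beside 28.5% of all probes.

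By complex, the called genes (1 probe a gene, the brightest) were 21 of 36 lower and 1 higher in complex I, 1 of 4 lower in complex II, 3 of 8 lower in complex III, 4 of 17 lower and 1 higher in complex IV, and 5 of 15 lower and 1 higher in complex V. By probe, 27 of 49, 3 of 6, 4 of 15, 5 of 21 and 13 of 28 were lower in the order I to V. Beside the 22.9% of all probes that were lower, the share of complex IV lay near the background both ways (23.5% by gene and 23.8% by probe), that of complex II by gene alone (25.0%, against 3 of 6 by probe), and that of complex III by probe alone (26.7% against 37.5% by gene). The gene medians were -0.65, -0.27, -0.53, -0.35 and -0.57 in that order, and that of complex II was -0.61 by probe. Within complex I, 4 of 7 core subunits and 17 of 29 accessory subunits were lower, with medians of -0.55 and -0.69.

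**Figure D2:**
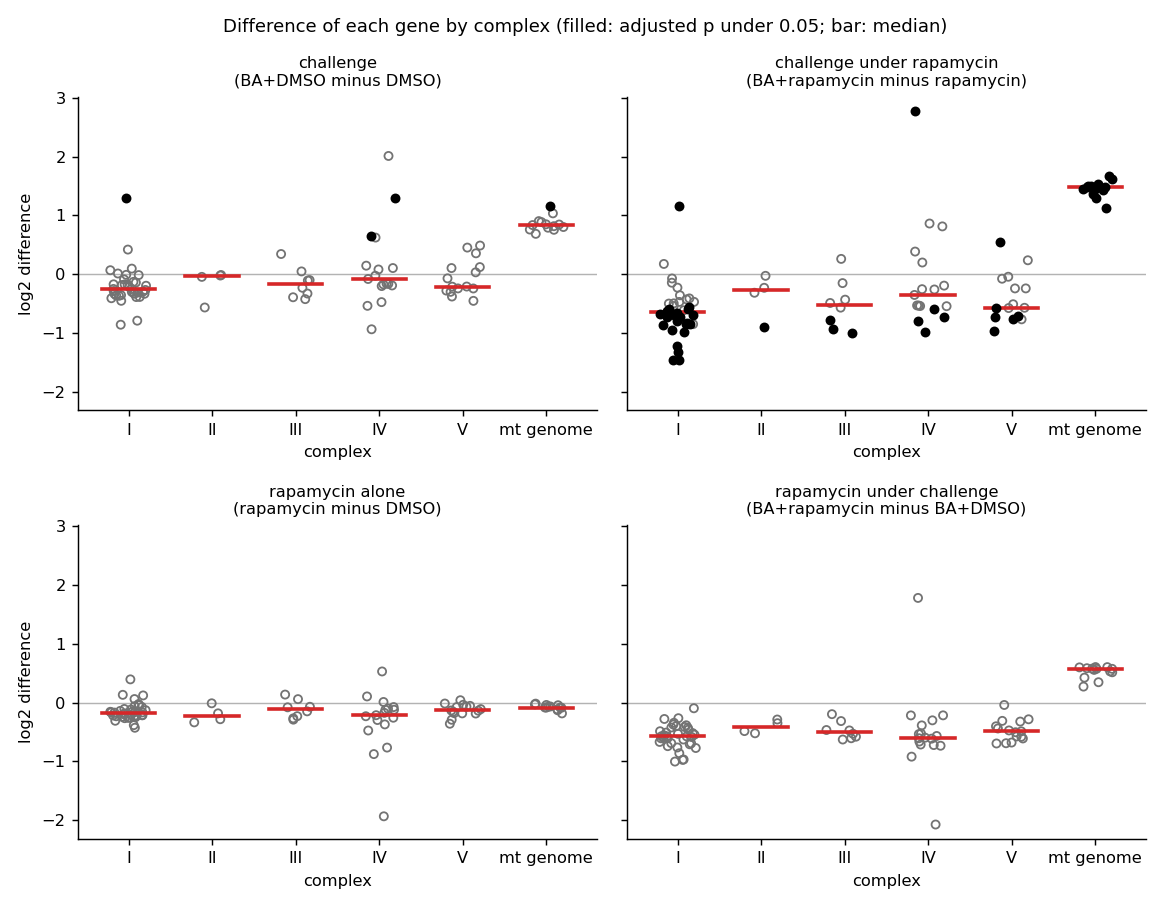
Log2 difference of each tested subunit gene (1 probe a gene), by complex, and of the 13 mitochondrial genome transcripts, in 4 comparisons; filled points passed an adjusted p of 0.05 and bars are medians. In the challenge under rapamycin 34 of 80 subunit genes are lower and 3 are higher, while all 13 mitochondrial genome transcripts are higher.

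In complex I the largest falls were those of Ndufb3, an accessory subunit of the membrane arm, and Ndufa6, an accessory subunit of the matrix arm. Ndufb3 (chr1:58652622-58652681, plus strand) stood at 4.78, 4.82 and 5.08 in rapamycin and at 3.60, 3.39 and 3.32 in BA+rapamycin, a difference of -1.46 ± 0.28 (adjusted p = 0.00332). In DMSO it stood at 5.03, 5.17 and 4.98 and in BA+DMSO at 4.25, 3.51 and 4.85, apart as well, by -0.86 ± 0.28 (adjusted p = 0.0506). Ndufa6 stood at 4.91, 4.88 and 5.09 in rapamycin and at 3.66, 3.56 and 3.31 in BA+rapamycin (-1.45 ± 0.27, adjusted p = 0.00281). Its DMSO levels of 4.52, 4.64 and 4.54 lay below all 3 rapamycin arrays, and its BA+DMSO levels were 3.80, 3.13 and 4.40. Among core subunits Ndufs1, an iron-sulfur protein of the electron path, fell by 0.83 under rapamycin (adjusted p = 0.025), and Ndufv1, which binds NADH, differed by -0.15 ± 0.21.

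Complex II, succinate dehydrogenase, holds the flavoprotein Sdha, the iron-sulfur protein Sdhb and the membrane anchors Sdhc and Sdhd. Sdha stood at 3.99, 3.91 and 4.27 in rapamycin and at 3.22, 3.11 and 3.12 in BA+rapamycin (-0.91 ± 0.22, adjusted p = 0.00991). In BA+DMSO it read 3.57, 3.01 and 3.93, against 4.16, 4.14 and 3.92 in DMSO (-0.57 ± 0.22, adjusted p = 0.0953). The brighter Sdhb probe differed by -0.32 ± 0.19 under rapamycin and was not called, while the dimmer one fell by 0.94 (adjusted p = 0.0335). The second Sdhc probe was called lower in the challenge in DMSO (-0.70 ± 0.22, adjusted p = 0.0429) and under rapamycin (-0.97 ± 0.22, adjusted p = 0.00662), while the brighter Sdhc probe gave -0.02 ± 0.20 and -0.03 ± 0.20. Sdhd differed by -0.23 ± 0.25 under rapamycin and by -0.05 ± 0.25 in DMSO.

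In complex III, which passes electrons from ubiquinol to cytochrome c, the core protein Uqcrc1 stood at 2.93, 3.10 and 3.19 in rapamycin and at 2.28, 1.88 and 2.08 in BA+rapamycin (-0.995 ± 0.28, adjusted p = 0.0179). In BA+DMSO it read 2.56, 2.08 and 3.42, on both sides of the DMSO levels of 3.03, 3.02 and 3.00. The Rieske protein Uqcrfs1 fell by 0.93 (adjusted p = 0.0357) and the core protein Uqcrc2 by 0.79 (adjusted p = 0.0173) under rapamycin. In DMSO they differed by -0.42 ± 0.32 and -0.39 ± 0.22, uncalled.

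In complex IV the brightest Cox7c probe, for a small subunit of the membrane part, fell by 0.98 under rapamycin (adjusted p = 0.028), from 4.35, 4.38 and 4.63 to 3.60, 3.61 and 3.21. Its dimmest probe, above background on none of the BA+rapamycin arrays, gave 0.27 ± 0.33. Cox4i1, the common form of subunit 4, fell by 0.60 (adjusted p = 0.032), from 7.20, 7.31 and 7.46 to 6.81, 6.69 and 6.67. Cox5a differed by -0.53 ± 0.31 and Cox5b by -0.20 ± 0.18, neither called. The brightest Cox5b probe is placed on chromosome 15 by the file and the gene on chromosome 1 by RefSeq, and the other Cox5b probe, on chromosome 1, gave -0.37 ± 0.19.

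In complex V, ATP synthase, Atp5g3, 1 of 3 genes for the ring subunit c, fell by 0.96 under rapamycin (adjusted p = 0.0223), from 5.88, 6.02 and 6.20 to 5.18, 5.07 and 4.96. The other ring genes moved less: Atp5g2 differed by -0.51 ± 0.25, and Atp5g1 by 0.24 ± 0.18 and, on its second probe, by 0.46 ± 0.29. In the challenge in DMSO, Atp5g1 stood apart above its control, at 6.24, 6.07 and 6.61 against 5.92, 5.74 and 5.81 (0.49 ± 0.18, adjusted p = 0.0744), although its second probe gave 0.01 ± 0.29, where Atp5g3 differed by -0.45 ± 0.29. Of the catalytic head, Atp5a1 (subunit alpha) fell by 0.77 under rapamycin (adjusted p = 0.013) and Atp5b (subunit beta) differed by -0.24 ± 0.17. Atp5f1, of the stalk, differed by -0.77 ± 0.37 (adjusted p = 0.11). The small subunit gene Atp5e was the 1 complex V gene called higher, by 0.55 (adjusted p = 0.0161). Before scaling, its signal was lower in BA+rapamycin (18033, 10244 and 17096 units) than in rapamycin (25252, 29899 and 35766), so that call is relative to the percentile.

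Of the 8 assembly factors that carry a member name, 5 were lower in the challenge under rapamycin, where 22.9% of all probes were. The smallest p-values were those of Ndufaf3 (-1.31 ± 0.31, adjusted p = 0.00893), Sdhaf1 (-0.75 ± 0.23, adjusted p = 0.0244) and Ndufaf1 (-0.51 ± 0.16, adjusted p = 0.0266), factors for complexes I, II and I. Ndufaf3 stood at 1.48, 1.62 and 1.74 in rapamycin and at 0.68, 0.21 and 0.02 in BA+rapamycin. Atp5s, now named Dmac2l, was lower in the challenge in DMSO (-0.81 ± 0.24, adjusted p = 0.0338), where it was above background on 1 of 3 BA+DMSO arrays. With normexp background correction its difference was 0.082, of the other sign and uncalled. In rapamycin alone it stood below DMSO by 0.89 ± 0.24, uncalled (adjusted p = 0.651).

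The responses to the challenge with and without rapamycin share no arrays. Under rapamycin the difference was the more negative for 77 of 80 subunit genes, and the sign was the same for 68. Across these genes, which are not independent replicates, Pearson's r was 0.56 and Spearman's rho 0.85. The difference of the responses, the interaction, was called for no member in limma and for 0% of all probes, and 3 of 132 member probes had an unadjusted p under 0.05, as had 6.12% of all probes. Without BA+DMSO 2, 22 member probes were called for the interaction, 20 of them negative, beside 11% of all probes. Without BA+DMSO 3, 0% of all probes were called. The median interaction of the subunit genes was -0.37 with all arrays, -0.58 without BA+DMSO 2 and -0.15 without BA+DMSO 3. With brightness as a covariate this median was closer to none, as given at the end.

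**Figure D3:**
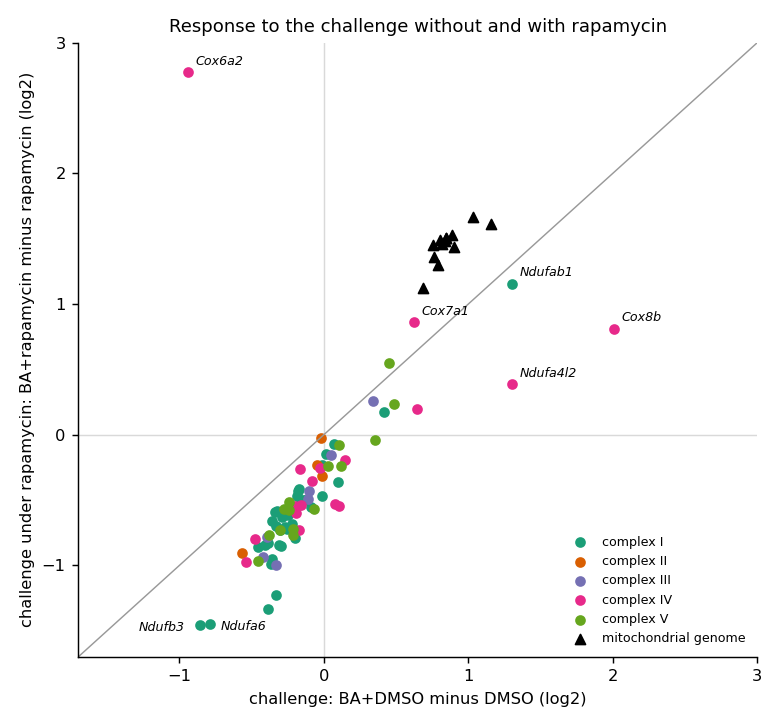
Log2 difference of each tested subunit gene in the challenge (horizontal axis) and in the challenge under rapamycin (vertical axis), by complex, with the 13 mitochondrial genome transcripts as triangles; the line marks equal values. Of 80 subunit genes, 77 lie below the line, and the 13 triangles, Cox6a2, Cox7a1 and Atp5e lie above it.

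The comparison of BA+rapamycin with BA+DMSO, called rapamycin under challenge, asks how the drug moved these genes in challenged aortas. No member was called in limma with all 12 arrays, where 0.281% of all probes were, although 73 of 132 member probes had an unadjusted p under 0.05, as had 20.1% of all probes. The median subunit gene differed by -0.54, beside -0.01 over all probes, and 79 of 80 differences were negative. With brightness as a covariate this median stayed negative but was smaller in size, as given at the end. By complex the median was -0.57 for I, -0.42 for II, -0.50 for III, -0.60 for IV and -0.49 for V. The BA+rapamycin arrays lay wholly below BA+DMSO for 43 of the 132 probes, as for 7.57% of all probes, and wholly above for 2, as for 6.9% of all probes. Leaving out BA+DMSO 2 turned this into 102 called member probes (77.3%), 99 of them lower, beside 39.9% of all probes, with a median of -0.75. Leaving out BA+DMSO 3 left none called, beside 0.122% of all probes, and a median of -0.33. Leaving out BA+DMSO 1 left 1 called, near the 0.806% of all probes. BA+DMSO 2, at a 75th percentile of 78.1, and BA+DMSO 3, at 246, were the dimmest and brightest arrays of that group.

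Rapamycin alone, rapamycin minus DMSO, called no member, where 0.0036% of all probes were called, and 6 of 132 member probes had an unadjusted p under 0.05, a share near the 4.27% of all probes. The median subunit gene differed by -0.17, beside -0.01 over all probes. With slide as a fixed block or brightness as a covariate it was more negative, as given at the end. Below the DMSO mean were 75, 69 and 51 of 80 subunit genes on rapamycin arrays 1, 2 and 3. On DMSO arrays 1, 2 and 3 they were 21, 24 and 65, so DMSO 3 had more than rapamycin 3. The 3 rapamycin arrays lay wholly below the DMSO arrays for 47 of the 132 member probes, as for 10.7% of all probes, and wholly above for 9, as for 10.8% of all probes.

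Cox7a2l had positive differences with rapamycin, where the median subunit gene had negative ones. With rapamycin alone 10 of 80 subunit genes were positive too, among them Ndufa4l2 (0.53) and Ndufa6 (0.39), which were negative under challenge (-0.39 and -0.27). This protein, also called SCAF1, is known for joining complexes III and IV into supercomplexes. Its brightest probe stood at 6.45, 6.44 and 6.38 in DMSO and at 6.93, 6.93 and 7.03 in rapamycin. In BA+DMSO it stood at 6.16, 5.65 and 6.42 and in BA+rapamycin at 6.66, 6.63 and 6.54. The rapamycin arrays lay above the vehicle arrays in both settings, by 0.54 ± 0.19 alone and by 0.53 ± 0.19 under challenge, and neither was called (adjusted p = 1 and 0.186). The overlapping second probe gave 0.55 and 0.47, and the third, which shares no bases with them, gave 0.67 and 0.32, with arrays that overlapped under challenge. For the challenge it ran with the subunits, at -0.35 ± 0.19 in DMSO and -0.35 ± 0.19 under rapamycin, and the third probe was called lower under rapamycin (-0.96 ± 0.29, adjusted p = 0.0225).

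The muscle and brown fat forms of complex IV subunits varied widely between arrays of a group. Cox6a2 stood at -0.89, 0.36 and 0.95 in DMSO, -1.32, -1.96 and -2.11 for rapamycin, -1.46, 1.27 and -2.20 for BA+DMSO, and 2.56, 1.38 and -0.99 for BA+rapamycin. It was called higher in the challenge under rapamycin (2.78 ± 0.97, adjusted p = 0.0406), with a within-group SD of 1.81 in BA+rapamycin. Its common partner Cox6a1 read 8.18, 8.33 and 8.40 in rapamycin and 7.77, 7.85 and 7.71 in BA+rapamycin (-0.53 ± 0.24, adjusted p = 0.0924). Cox8b stood at -0.39, -1.10 and 0.05 in DMSO, -1.08, -2.33 and -0.66 for rapamycin, 1.74, 3.01 and -0.17 for BA+DMSO, and 1.27, -1.31 and -1.60 for BA+rapamycin, with overlap throughout, and no comparison called it (2.01 ± 0.87 in the challenge, adjusted p = 0.125). Cox7a1 stood at 0.41, 0.72 and 1.25 in DMSO, -0.06, 0.01 and 0.13 for rapamycin, 1.45, 2.13 and 0.67 for BA+DMSO, and 1.82, 0.57 and 0.28 for BA+rapamycin, also uncalled. The rapamycin arrays lay wholly below DMSO for Cox6a2 and Cox7a1.

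Some markers of striated muscle and fat were high on the arrays where these forms were high, and others were not. Where Cox6a2 was highest, on BA+rapamycin 1, the heart myosin Myh6 stood at 5.37 and myoglobin (Mb) at 1.05, and on BA+DMSO 2 at 4.22 and 0.01. On BA+DMSO 3, where Cox6a2 was lowest, they stood at -0.61 and -5.63. The actin Acta1 and the calcium store protein Casq1 went the other way, at 4.22 and -3.03 on BA+rapamycin 1 and at 5.95 and 0.54 on BA+DMSO 3. Myoglobin was above background on 9 of the 12 arrays. Of 18 striated muscle markers, 12, 11, 10 and 8 were above background on all 3 arrays of DMSO, rapamycin, BA+DMSO and BA+rapamycin, Myh4 was above it on no array, and Myh1 and Myh2 on BA+rapamycin 1 alone. The summed signal of this list was 74.1 to 86.8 for DMSO, 60.8 to 68.0 for rapamycin, 22.9 to 70.3 for BA+DMSO and 23.5 to 79.9 for BA+rapamycin. Where Cox8b was highest, on BA+DMSO 2, the fat droplet gene Cidec stood at 2.47, its highest value, and the brown fat uncoupling protein Ucp1 at -0.33, its highest value, while Dio2, another brown fat marker, stood there at 4.61, the lowest of its group. Lep, Elovl3 and Slc27a2 were above background on no array and Ucp1 on 5. The 10 adipocyte markers summed to 37.1 to 54.4 for DMSO, 26.2 to 69.0 for rapamycin, 48.9 to 195 for BA+DMSO and 30.2 to 222 for BA+rapamycin, and the 12 brown adipocyte markers to 35.6 to 46.4, 40.8 to 44.0, 47.8 to 56.9 and 45.8 to 72.2. The brown list split in the challenge under rapamycin, with 2 of 8 tested markers called higher and 2 lower, where 18.9% and 22.9% of all probes were. Dio2 went from 3.78, 3.87 and 3.80 to 5.43, 5.99 and 5.21. Cidea went from 3.96, 3.95 and 4.15 to 2.38, 0.19 and 1.67, and Fabp3 from 3.30, 3.38 and 3.40 to 2.75, 2.28 and 1.70. The part of these cells in the levels of Cox6a2, Cox7a1 and Cox8b was not tested.

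Of the other isoforms, Cox4i2, the lung form of subunit 4, was at -0.47, -0.45 and -0.47 in DMSO and -1.06, -0.36 and -0.05 in BA+DMSO, with no call in any comparison. In the challenge under rapamycin Cox7a2 fell by 0.73 (adjusted p = 0.0433), and Cox7b and Cox8a differed by -0.35 ± 0.25 and -0.26 ± 0.17. The second Cox8a probe fell by 0.56 (adjusted p = 0.0377). Cox7b2 and Cox8c were above background on no array.

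**Figure D4:**
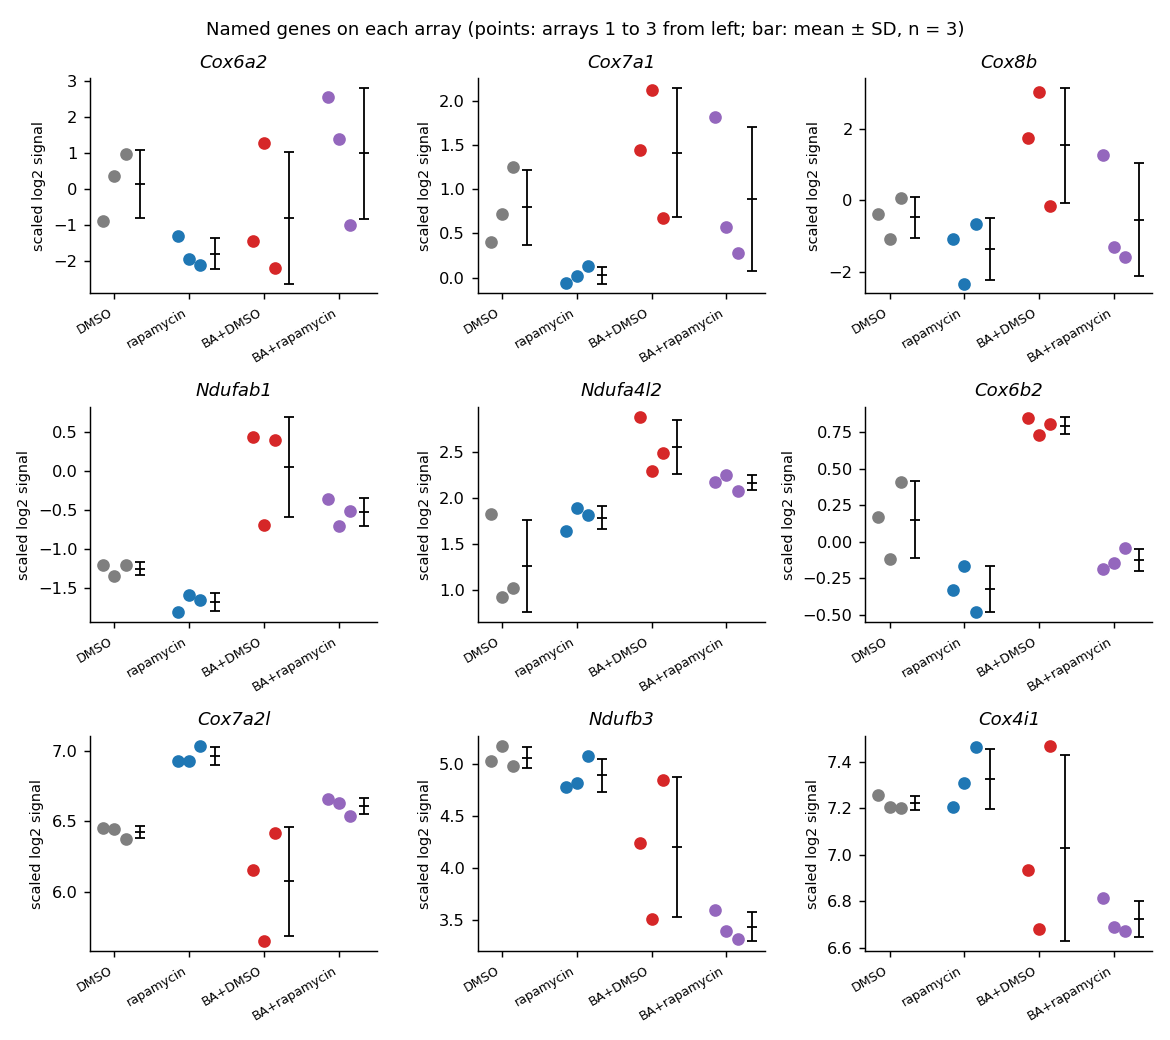
Scaled log2 signal of 9 named genes on the 3 arrays of each group, with the group mean ± SD (n = 3); each panel has its own axis, which does not start at 0. Cox6a2, Cox7a1 and Cox8b scatter within groups, Ndufab1 is higher on all 6 challenged arrays, and the Cox7a2l probe shown reads higher on the rapamycin arrays in both settings, uncalled.

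Probes of 1 gene mostly went together. Of 29 genes with several tested probes, the probes differed in sign for 4 in the challenge and 5 in the challenge under rapamycin, with a median range of 0.11 and 0.24. No gene had 1 probe called higher and another called lower. Calls were mixed for 11 of the 29 genes in the challenge under rapamycin, so a count of genes depends on the probe that stands for them. A pair of Atp5k probes is placed on chromosome Y by the file and the gene on chromosome 5 by RefSeq.

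On the scaled values the 13 transcripts of the mitochondrial genome had differences of the other sign from the median nuclear subunit in both challenge comparisons and for rapamycin under challenge, but not for rapamycin alone. In the challenge under rapamycin all 13 were called higher, as were 18.9% of all probes, by 1.12 to 1.67 with a median of 1.48. In the challenge in DMSO the median was 0.83 and 13 of 13 were positive. Only ND6, the dimmest of the 13, was called higher (1.16), where 9.65% of all probes were. With rapamycin alone the median was -0.09 and under challenge 0.57, with no call in limma in either and 0 of 13 at an unadjusted p under 0.05. COX1, the catalytic subunit of complex IV, stood at 9.34, 9.35 and 9.48 in DMSO, 9.38, 9.42 and 9.11 for rapamycin, 10.37, 10.94 and 9.40 for BA+DMSO, and 10.56, 11.18 and 10.69 for BA+rapamycin. BA+DMSO 3 lay with the unchallenged arrays and the other 5 challenged arrays above them. The probe for ND3 is placed on chromosome 1 by the file, and its difference was 1.46 in the challenge under rapamycin. Without BA+DMSO 3, all 13 were called higher in the challenge in DMSO, beside 17.3% of all probes. Without DMSO 1, 2 or 3, 0 of 13 were called, beside 11.8%, 7.38% and 11% of all probes. Without BA+DMSO 1 or 2 it was also 0, beside 11.2% and 27.2%. The ND6 call was thus lost in each of these settings, and also with quantile normalization or slide as a fixed block.

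Before scaling, the median of these transcripts varied less between arrays than that of the nuclear subunits. COX1 ran from 153194 to 186603 units of processed signal over all 12 arrays. ND1 and ND6 varied more, from 4184 to 8886 and from 276 to 515, and ND1 was lower on BA+rapamycin (4184, 6009 and 5855) than on rapamycin (6782, 6376 and 8886). The median mitochondrial genome transcript lay between -0.13 and 0.21 of its DMSO mean on the log2 scale. The median nuclear subunit, also before scaling, lay between -0.27 and 0.35 on the 6 unchallenged arrays and at -1.16, -2.36 and 0.23 on BA+DMSO 1, 2 and 3. On BA+rapamycin it lay at -1.82, -2.52 and -2.01. The scaled values of both sets are relative to the percentile, which was lowest on those 5 arrays. With brightness as a covariate none of the 13 was called in the challenge under rapamycin.

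**Figure D5:**
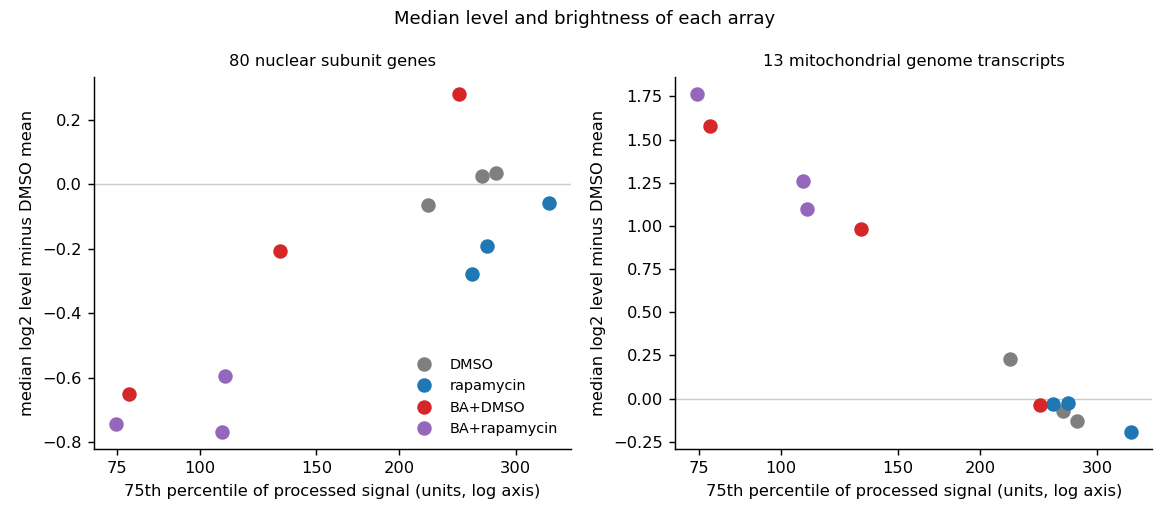
Median log2 level, minus the DMSO mean, of the 80 nuclear subunit genes (left) and the 13 mitochondrial genome transcripts (right) against the 75th percentile of processed signal of each array (log axis). The dim arrays, BA+DMSO 2 at 78.1 and BA+rapamycin at 75 to 109, hold the lowest subunit levels and the highest mitochondrial genome levels, and BA+DMSO 3 at 246 lies with the unchallenged arrays on the right and above them on the left.

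The other genes of mitochondrial energy metabolism were counted from lists of their own, 1 probe a gene, and are read against 22.9% of all probes lower and 18.9% higher. In the challenge under rapamycin, 12 of 17 genes of the tricarboxylic acid cycle and pyruvate dehydrogenase were lower, with a median of -0.66 and the largest fall in Suclg2, a subunit of succinyl-CoA ligase (-2.04). Of 13 carriers and channels, 6 were lower, among them the ADP/ATP carrier Slc25a4 (-0.85) and the outer membrane channel Vdac2 (-0.99). Of 25 assembly factors and cytochrome c genes that carry other names, 6 were lower, a share near that background, including Surf1 (-1.34), needed for complex IV assembly, and Lrpprc (-1.10), which stabilises mitochondrial mRNA, and 2 were higher (Lyrm7 and Cox19). Of 15 factors of mitochondrial biogenesis, 6 were lower, among them Gabpa (-1.05), Tfam (-0.93) and Ppargc1a (-1.02), and none was higher. The factors Nrf1 (-0.22) and Esrra (0.21) were not called.

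In the challenge in DMSO the same lists gave 3 lower of 17, 0 of 13, 3 lower and 1 higher of 25, and 3 lower of 15, where 10.8% of all probes were lower and 9.65% higher. Suclg2 (-1.51), Surf1 (-0.84), Lrpprc (-0.85) and Gabpa (-0.77) were among those lower. In limma neither rapamycin comparison called a gene of these lists. At an unadjusted p under 0.05 stood 6 genes of the tricarboxylic acid list, 6 carriers, 7 assembly factors and 0 biogenesis factors under challenge, where 20.1% of all probes did, and 1 assembly factor with rapamycin alone, where 4.27% did.

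Promoters of the subunits were read for motifs of factors known to drive them, since the subunits moved together. RefSeq promoters (GRCm38.p6, 250 bases before to 50 after the start) matched 66 of the 80 tested subunit genes, with 71 promoters. On either strand, the NRF-1 motif (in capitals in the lines for Ndufa11, Cox6a1, Atp5g2 and Atp5k) was in 5 of these 71 promoters (7.04%) and in 0.971% of all 32851 promoters of the same length. The ETS motif CCGGAAG of GABP was in 22.5% against 8.86%, the ERR motif AAGGTCA in 11.3% against 4.72%, and the YY1 motif (in capitals in the line for Atp5j) in 7.04% against 0.852%. The genes with the NRF-1 motif were Ndufa11, Uqcrc1, Cox6a1, Atp5g2 and Atp5k, whose differences in the challenge under rapamycin were -1.33, -0.995, -0.53, -0.51 and -0.08. The first pair was called lower, a share near the 42.5% of the 80 subunit genes, where 22.9% of all probes were. Whether a motif had a part in the differences was not tested. The windows of 4 of them lie wholly before the start and are shown with the motif in capitals, 5′ to 3′ on the gene's strand, at chr17:56717692-56717721 (plus), chr5:115349101-115349130 (minus), chr15:102671070-102671099 (minus) and chr5:108434430-108434459 (minus). The Atp5j window, at chr16:84835045-84835074 (minus), also lies before the start, and Atp5j differed by -0.58 in the challenge under rapamycin, uncalled. A match is a description of these letters, not of binding.
Ndufa11: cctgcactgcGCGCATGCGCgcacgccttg
Cox6a1: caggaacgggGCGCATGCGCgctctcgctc
Atp5g2: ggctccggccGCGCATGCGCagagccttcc
Atp5k: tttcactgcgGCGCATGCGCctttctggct
Atp5j: aagtgtaggaAAGATGGCGGagtcttagct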

How the data were processed

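Aortic RNA of 12 samples was labelled with Cy3 and read on 1-colour Agilent mouse arrays, 2 slides in all. Per the file headers, spot values are intensity with background removed and trends across the slide corrected, but without scaling between arrays, and probe positions refer to mm9. The submitters' processing notes name Feature Extraction 9.5.1.1, while the headers of all 12 files give 10.7.1.1. The deposited matrix holds intensity with the same sorted values in every column, so it was quantile normalized, and flag columns hold 0 or 1. Groups follow the treatment labels, with replicates numbered by accession.

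Control and outlier spots were dropped, spots of a probe averaged as log2 of the deposited intensity, and the 75th percentile of each array subtracted. No spot was saturated. Testing required that on all 3 arrays of some group 0.5 or more of a probe's spots were well above background, which kept 27801 probes. limma 3.58.1 (R 4.3.3) fitted 1 mean per group over the 12 arrays, two-sided, with Benjamini-Hochberg adjustment over all tested probes per contrast, and was tested on simulated data. The number of arrays limits the precision. Marker sums add linear signal divided by the 75th percentile.

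The tested probe with the highest mean stood for a gene. Members and lists were chosen with earlier results of these data known. Named genes were the 2 subunit genes per complex with the largest difference in each challenge comparison, members called with rapamycin or in the interaction (none), tissue isoforms with their partners, and 10 core subunits. Assembly factors with the smallest p in a challenge comparison were named too (Atp5s in DMSO, and Ndufaf3, Sdhaf1 and Ndufaf1 under rapamycin). Others (Sdhc, Atp5e, Ndufa11, Atp5j and Atp5k, and genes of the other lists) were named after their values were seen. Alternatives were other normalizations, background correction, filters, blocks, array weights, brightness as a covariate and leaving out each array, and those for the mitochondrial genome transcripts were chosen after seeing the data. All 92 member names matched a RefSeq gene.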

Additional observations from a re-analysis of the deposited data

How the results depend on the processing

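The main counts of called member probes were 5 for the challenge, 63 for the challenge under rapamycin and 0 for both rapamycin comparisons and the interaction. For the challenge the count was 11 with quantile normalization, cyclic loess, the deposited matrix or the 75th percentile over probes detected on all arrays (19.7%, 21.6%, 19.6% and 21.3% of all probes), of which 3, 6, 3 and 8 were higher. It was 15 with slide as a random block (36.9%, 9 higher) or brightness as a covariate (18.3%, 13 higher), 2 with no filter on dim probes (7.65%), and 0 with slide as a fixed block (0.054%), array weights (0.403%) or only the groups compared (4.47%). For the challenge under rapamycin it was 114 with normexp (62.4% of all probes), 104 with array weights (65.7%), 101 with only the groups compared (56.4%), 27 with slide as a fixed block (28.5%) and 1 with brightness (6.42%). Rapamycin under challenge gave 3 with brightness (1.12%) and 1 each with quantile normalization (0.802%), the deposited matrix (0.799%) or the title date as a random block (1.65%), and rapamycin alone gave 11 with array weights (5.44%), whose estimation did not converge. The median subunit difference with brightness was 0.27 in the challenge, 0.18 in the challenge under rapamycin, -0.31 for rapamycin under challenge, where it was -0.54 without that term, -0.27 with rapamycin alone and -0.066 for the interaction. In the challenge it was -0.19 without such changes, -0.41 with normexp, -0.35 with slide as a fixed block and -0.0087 with array weights. In the challenge under rapamycin it was -0.37 with the percentile over detected probes and -0.96 with normexp, and with rapamycin alone it was -0.28 with slide as a fixed block. The median of all probes in the challenge under rapamycin moved from -0.08 to -0.18 with quantile normalization and to 0.14 with normexp. Of the 13 mitochondrial genome transcripts, 1 was called in the challenge, 12 with slide as a random block, and 0 with quantile normalization, the deposited matrix, the percentile over detected probes, no filter, only the groups compared, slide as a fixed block, the title date as a block, brightness or array weights. In the challenge under rapamycin 0 of 13 were called with brightness. Signs turned with brightness for Ndufa4 in the challenge (0.50) and, in the challenge under rapamycin, for Uqcrfs1 (0.18), Uqcrc1 (0.19), Cox6a2 (-0.38), Cox7c (0.18), Atp5g3 (0.18), Cox4i1 (0.078), Cox7a2 (0.30), Ndufs1 (0.14) and Sdhaf1 (0.16), and with normexp for Atp5s in the challenge (0.082). The cause of these changes was not tested.

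Leaving out 1 array at a time gave 2 to 45 called probes in the challenge, 9 to 97 in the challenge under rapamycin, 0 to 102 for rapamycin under challenge, 0 to 22 for the interaction and 0 to 0 for rapamycin alone. The median subunit difference ran from -0.42 to 0.04, from -0.62 to -0.49, from -0.75 to -0.33, from -0.58 to -0.15 and from -0.25 to -0.12 in the same order. For the mitochondrial genome transcripts the counts ran from 0 to 13 in the challenge and from 11 to 13 under rapamycin. Title dates and numbers as a replicate block gave 6 called probes in the challenge (21.4% of all probes). That block gave 77 in the challenge under rapamycin (47.6%) and 0 in the other comparisons. Of all probes, 0.194% were then called for rapamycin under challenge, and 0% for rapamycin alone and the interaction. Samples sharing a number and date deviated with correlations of 0.17, -0.35 and 0.09, so these numbers were not taken as pairs. The interaction could not be computed from only the groups compared, since it uses all 4. Of 4897 values of named genes under other settings, 104 lost a call, 152 gained one, 11 turned sign with a call before or after, and for the other 4630 the call did not change, although 185 of these changed sign while uncalled. Dim probes limit the reading of Atp5s and of the dimmest Cox7c probe.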
